A study of Mus musculus with 30 samples.

Results

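The sclera of 3-week-old mice was compared with the sclera of 2-week-old mice, with 6 arrays at each age, 12 of the 30 arrays in the series. The comparison covered the 21789 transcript clusters that carried exactly 1 gene symbol, of 35556 on the array, and these stood for 19938 genes. All mice were Balb/cJ, an inbred albino strain, were untreated, and came from the same family according to the study's methods. Each array held the RNA of a single whole sclera from 1 mouse, so that fewer cells of a type and less RNA per cell cannot be told apart. The arrays of 1, 6 and 8 weeks entered the estimate of the spread and give the levels at the other ages. The labels give neither the sex of the mice nor the hour at which tissue was taken.

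The sclera is the collagen-rich outer coat of the eye, built and maintained by fibroblasts. It borders the choroid and retinal pigment epithelium on its inside, the eye muscles on its outside and the cornea and conjunctiva at its front. Col1a1, which codes for the main chain of type I collagen and marks the tissue, averaged 12.79 ± 0.30 in week 3 and 12.23 ± 0.46 in week 2 on the log2 scale (SD, n = 6 and 5 arrays). Transcripts of neighbouring tissues were present at both ages as well. Krt12, a keratin that marks corneal epithelium, averaged 12.15 ± 1.87 in week 3 and 13.07 ± 0.32 in week 2.

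Some properties of the arrays bear on every value below. The array labelled week 2 replicate 4 equalled the mean of the other 5 week 2 arrays in all 35556 transcript clusters, with a largest difference of 8e-05, and in week 6 the mean of replicates 4 and 6 equalled the mean of the other 4 arrays. Week 2 was therefore counted as 5 arrays wherever an SD or a spread is given. Fits that left out other week 2 arrays kept replicate 4, so they removed those arrays only in part. The range of values within an array also differed, with an interquartile range of 2.71 to 2.80 on the log2 scale in week 3 and of 2.22 to 2.56 in week 2. These ranges did not overlap, so the age and the spread of the arrays cannot be told apart. Xist, which is transcribed from the inactive X chromosome, was at 12.57 or above in all week 3 arrays, and in week 2 at 12.62 to 12.70 in replicates 1 to 3 but at 6.96 and 7.07 in replicates 5 and 6. Of both ages compared, only week 2 held arrays with low Xist, so sex as read from Xist was not balanced between them.

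A gene was called where it changed 2-fold or more with an adjusted p no greater than 0.05, in a limma fit over all arrays with Benjamini-Hochberg adjustment over all transcript clusters. By this rule 576 genes rose in week 3 relative to week 2, or 2.89% of those tested, and 42 fell, or 0.211%. The median log2 fold change over all genes was 0.01. The balance moved with signal. When genes were ranked by mean signal and split into 4 equal bins, the brightest bin had 339 genes higher and 13 lower, with a median log2 fold change of 0.32, whereas the dimmest had 1 higher and 7 lower, with a median of -0.29. When the fit took each array's interquartile range into account as a covariate, 139 genes were called higher and 34 lower, of which 126 were among the 618 called without it. Without week 2 replicates 5 and 6, the arrays with low Xist, 796 genes were called higher and 55 lower. That fit kept replicate 4, which as the mean of the other 5 arrays still carries part of replicates 5 and 6. The fit treated all 30 arrays as independent, with 25 residual degrees of freedom, although the values held 23 independent directions. With terms for the dependent arrays 573 genes were called higher and 38 lower, and 17 of the phototransduction genes described further on rather than 19.

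**Figure D1:**
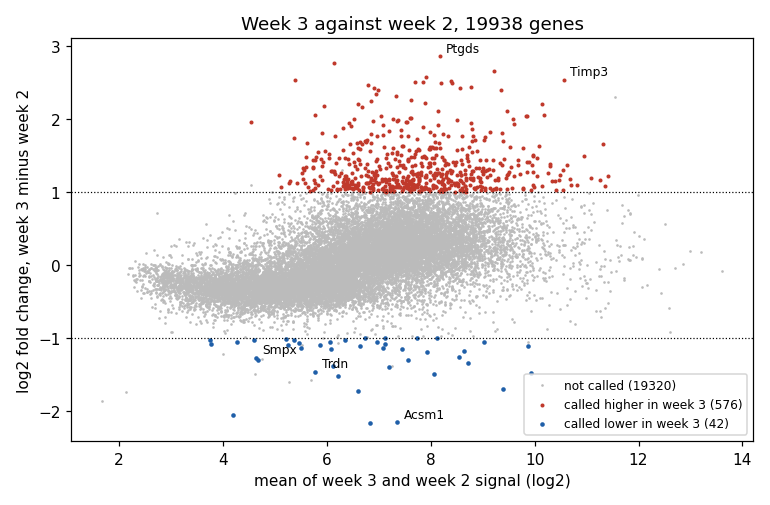
Each point is a gene, with its mean log2 signal over both ages on the horizontal axis and its log2 fold change, week 3 minus week 2, on the vertical axis. Dotted lines mark a fold change of 2. The 576 genes called higher in week 3 lie mostly at bright signals, and the 42 called lower are spread over the whole range.

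The circadian clock is a feedback loop of transcription in which Arntl and Clock drive the genes of their own repressors, Per1 to Per3, Cry1, Cry2, Nr1d1 and Nr1d2, and of output factors such as Dbp and Tef. Of 18 clock genes measured, 9 rose in week 3 and none fell, with a median log2 fold change of 0.98. In 12 of the 18, these 9 among them, every week 3 array lay above every week 2 array, as in 16.8% of all genes. The other members with no overlap were Cry2, Per3 and Rora, with log2 fold changes of 0.92, 0.75 and 0.40. Per1, a repressor that also responds quickly to hormones, had signals of 9.80, 9.43, 10.03, 9.30, 9.61 and 9.74 in week 3, against 6.65, 6.74, 7.33, 7.71 and 7.22 in week 2. The gap between the ages was wider than the whole range within either of them. The fold change was 5.74 (log2 fold change 2.52, SE 0.16, adjusted p = 5.4e-12).

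Bhlhe41 and Ciart, which code for further repressors of the loop, followed the same direction. Bhlhe41 lay between 7.88 and 8.32 in week 3 and between 5.14 and 6.29 in week 2, a fold change of 5.05 (adjusted p = 7.5e-09). Ciart lay between 6.89 and 8.42 in week 3 and between 5.44 and 6.10 in week 2, a fold change of 4.49 (adjusted p = 7.7e-10), and its less bright transcript cluster had a log2 fold change of 1.36. Nr1d1, a nuclear receptor that represses Arntl, rose 3.79-fold (adjusted p = 6.4e-11), and its signals were tight at each age, at 10.39 to 10.83 in week 3 and 8.47 to 8.80 in week 2. Dbp and Tef, related output factors, rose 3.24-fold and 2.27-fold (adjusted p = 6e-10 and 2.4e-10). Per2, Nr1d2 and Bhlhe40 rose 2.40-fold, 2.12-fold and 2.07-fold (adjusted p = 3.6e-09, 2.5e-10 and 7.5e-07), and Bhlhe40 was below a fold of 2 without week 2 replicate 2 (log2 fold change 0.98).

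The activators of the loop stood on the other side of 0 without being called. Arntl had a median of 6.71 in week 3, within 6.27 to 7.08, and a median of 7.26 in week 2, within 6.92 to 7.50 (log2 fold change -0.59, adjusted p = 0.0053). Clock had a log2 fold change of -0.41 (adjusted p = 0.017), and Cry1, a repressor, one of 0.14 (adjusted p = 0.13). With the spread of the arrays as a covariate 7 of the 9 clock genes were called, against 0 of the 16 melanosome genes described further on, and under quantile normalization 6 were called.

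The CACGTG motif is the E-box that Arntl and Clock are known to bind, and the promoters of the 3 clock genes with the largest rises hold it. It was searched in the 250 bases before each start in the RefSeq annotation (GRCm38.p6), after the values of the clock genes had been seen. It reads alike on both strands. It occurred in 6 of 22 promoters of the clock list, or 27.3%, and in 6.02% of all 32851 promoters. By gene these were 5 of 16, namely Per1, Ciart, Bhlhe41, Tef and Cry1, of which Cry1 was not called. No match was found for Nr1d1, Dbp, Per2, Nr1d2 or Bhlhe40, which were called. A match of letters does not show that the site is used. The stretches of Per1 (chr11:69098749-69098948, plus strand), Ciart (chr3:95882229-95882368, minus strand) and Bhlhe41 (chr6:145865421-145865600, minus strand) end at the base before the start, with the motif in capitals.
Per1: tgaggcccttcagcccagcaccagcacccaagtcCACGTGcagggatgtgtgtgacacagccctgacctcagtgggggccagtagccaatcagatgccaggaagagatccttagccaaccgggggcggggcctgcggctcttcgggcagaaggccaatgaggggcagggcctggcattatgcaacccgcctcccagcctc
Ciart: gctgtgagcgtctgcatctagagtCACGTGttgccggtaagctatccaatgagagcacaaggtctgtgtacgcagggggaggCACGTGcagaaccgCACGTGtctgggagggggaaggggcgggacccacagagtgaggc
Bhlhe41: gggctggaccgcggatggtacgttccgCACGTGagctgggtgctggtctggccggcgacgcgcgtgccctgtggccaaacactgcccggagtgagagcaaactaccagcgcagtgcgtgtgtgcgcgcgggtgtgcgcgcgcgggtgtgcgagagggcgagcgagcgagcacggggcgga

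**Figure D2:**
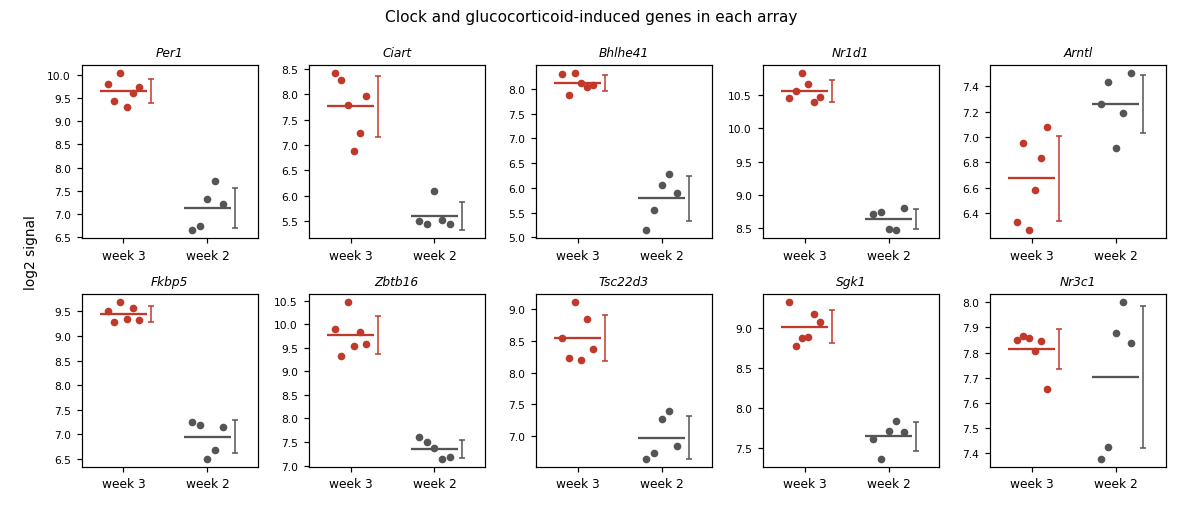
Log2 signal of 5 clock genes (upper row) and of 4 glucocorticoid-induced genes and the glucocorticoid receptor Nr3c1 (lower row) in each array, week 3 on the left and the 5 independent arrays of week 2 on the right. Horizontal lines are means and bars are SDs. Per1, Ciart, Bhlhe41, Nr1d1, Fkbp5, Zbtb16, Tsc22d3 and Sgk1 do not overlap between the ages, whereas Arntl and Nr3c1 do.

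Among the largest rises were Fkbp5 and Zbtb16, which glucocorticoid hormones are known to induce in many cell types through the receptor Nr3c1. A list of 27 such genes was therefore written after the values of the leading genes had been seen, and it is given as a description only. Of 26 measured, 14 rose and none fell, with a median log2 fold change of 1.16. Fkbp5, a chaperone partner that dampens the receptor, had signals of 9.50, 9.28, 9.69, 9.34, 9.56 and 9.32 in week 3, against 7.25, 7.19, 6.50, 6.68 and 7.15 in week 2. Its fold change of 5.63 (SE of the log2 value 0.12) had an adjusted p of 1.2e-14. Zbtb16, a zinc finger repressor, rose 5.36-fold (adjusted p = 5.4e-12), with a lowest week 3 signal of 9.33 and a highest week 2 signal of 7.60.

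The other members that rose included further transcription factors and feedback genes of the hormone. Hif3a, a hypoxia-inducible factor subunit, and Klf9, a zinc finger factor, rose 3.15-fold and 3.00-fold (adjusted p = 2.4e-10 and 1.8e-08). Tsc22d3, which codes for the leucine zipper protein GILZ, had a median signal of 8.47 in week 3 and of 6.85 in week 2, a fold change of 2.98 (adjusted p = 3e-09). Sgk1, a kinase that regulates sodium transport, rose 2.60-fold (adjusted p = 3.6e-08), and Ddit4, an inhibitor of the growth kinase mTOR, rose 2.77-fold (adjusted p = 1.6e-08). Fam107a, Lcn2, Nfkbia, Sult1a1, Cebpd and Mt1 rose by between 1.15 and 1.67 on the log2 scale.

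Not every target on that list moved. Nr3c1, the receptor itself, had a median of 7.85 in week 3 and of 7.84 in week 2 (log2 fold change 0.11, adjusted p = 0.37). Pdk4, Cebpb and Mt2 had log2 fold changes of 0.32, -0.03 and 0.61 and were not called. Dusp1, an immediate early phosphatase, was at 0.88 (adjusted p = 0.0048), and no member of the 28 immediate early genes was called, with Fos at -0.54 and Egr1 at 0.35. With the spread of the arrays as a covariate 12 of the 26 genes were called, and 13 under quantile normalization.

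The mean level was highest in week 3 of the 5 ages for 12 of 18 clock genes and for 4068 of all 19938 genes. It was so for 21 of 26 glucocorticoid-induced genes, a count that the choice of that list after the week 3 rises had been seen partly fixes, and Per1 is on both lists. Fkbp5 had mean signals of 6.61, 6.96, 9.45, 6.85 and 6.57 at 1, 2, 3, 6 and 8 weeks, and week 3 exceeded week 6 by a log2 fold change of 2.60 (adjusted p = 9.5e-16). Per1 had means of 7.34, 7.13, 9.65, 6.86 and 7.06, with a log2 fold change of 2.79 for week 3 over week 6 (adjusted p = 8.2e-14). In contrast, Nr1d1 stayed high after week 3, at 9.72 in week 6 and 10.03 in week 8, and Bhlhe41 had a mean of 8.58 in week 1 and of 8.12 in week 3 (adjusted p = 0.091).

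**Figure D3:**
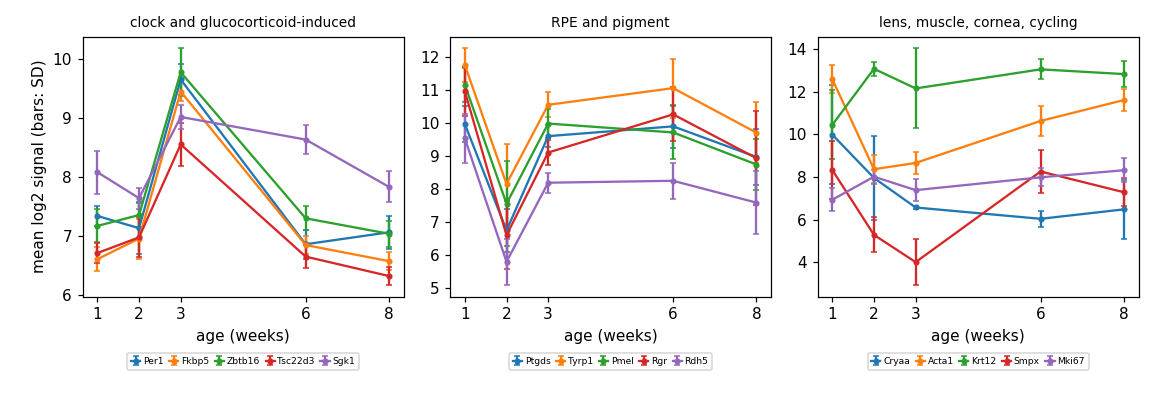
Mean log2 signal with SD over the arrays of each age (6 arrays, 5 in week 2) against age in weeks, for clock and glucocorticoid-induced genes (left), genes of pigment epithelium and pigment (middle), and lens, muscle, corneal and cell cycle genes (right). The genes of the left panel have their highest mean in week 3, whereas Tyrp1, Pmel, Rgr, Rdh5 and Ptgds have their highest in week 1 and their lowest in week 2.

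The retinal pigment epithelium lies between photoreceptors and choroid, recycles the visual chromophore and holds melanosomes, which carry no melanin in albino mice. Of its 18 genes measured 13 rose and none fell, with a median log2 fold change of 1.64. For 8 of the 13 the arrays did not overlap between the ages. Best1, a further marker of this epithelium, had a mean of 5.10 in week 3 and of 5.38 in week 2. Its log2 fold change of -0.28 was the lowest of the list. Of 26 melanosome genes 16 rose, with a median of 1.38, and of 31 phototransduction genes 19 rose, with a median of 1.26. All 16 melanosome genes that rose had no overlap between arrays, against 8 of the 19 phototransduction genes. These counts cover called genes only. Over all genes, called or not, 16.8% had no overlap with week 3 higher. With 1 array left out the phototransduction count was 13 to 21. It was 13 without week 2 replicate 3 and 14 without week 2 replicate 1. Rgr, a light-sensing opsin of pigment epithelium, lay between 8.37 and 9.43 in week 3 and between 5.47 and 8.25 in week 2, a fold change of 5.68 (adjusted p = 0.0002). Rpe65, the isomerase of the visual cycle, rose 6.80-fold (adjusted p = 0.0005) although its arrays overlapped, at 6.69 to 7.87 in week 3 and 3.28 to 7.02 in week 2. For both genes the range was wider in week 2 than in week 3.

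As list means, all 3 groups were lowest in week 2 of the 5 ages and highest in week 1. The highest mean fell in week 1 for 28 of 31 phototransduction genes, 19 of 26 melanosome genes and 12 of 18 pigment epithelium genes. Tyrp1, an enzyme of the melanosome, had means of 11.75, 8.15, 10.55, 11.05 and 9.70 at 1, 2, 3, 6 and 8 weeks. Week 3 exceeded week 2 by 2.40 on the log2 scale (adjusted p = 7.3e-05) and was below week 1, with a log2 fold change of -1.20 (adjusted p = 0.024). With the spread of the arrays as a covariate, 0 phototransduction genes, 0 melanosome genes and 1 pigment epithelium gene were called higher.

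Short promoter motifs of 2 known regulators were counted for these lists. CATGTG is the core that Mitf binds in pigment genes, and Mitf itself rose 2.63-fold (adjusted p = 0.00087). CATGTG, searched on both strands, was present in 8 of 27 melanosome promoters, or 29.6%, and in 12.3% of all promoters. TAATCC is bound by the photoreceptor factor Crx, and it was present in 10 of 25 phototransduction promoters, or 40%, and in 6.25% of all. In the pigment epithelium list CATGTG was present in 3 of 21 promoters, or 14.3%, a share near that of all promoters, and TAATCC in 4 of 21, or 19%. The examples are from Tyr (chr7:87493513-87493612, minus strand), Tyrp1 (chr4:80834113-80834212, plus strand), Sag (chr1:87803560-87803679, plus strand) and Guca1a (chr17:47400607-47400726, minus strand), each ending at the base before the start, with the motif or its reverse complement in capitals.
Tyr: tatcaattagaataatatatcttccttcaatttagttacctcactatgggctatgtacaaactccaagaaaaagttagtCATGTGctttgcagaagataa
Tyrp1: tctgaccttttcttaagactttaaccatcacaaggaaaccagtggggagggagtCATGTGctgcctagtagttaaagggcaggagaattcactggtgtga
Sag: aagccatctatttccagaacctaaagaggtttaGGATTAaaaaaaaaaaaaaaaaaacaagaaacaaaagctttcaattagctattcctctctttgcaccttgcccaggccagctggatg
Guca1a: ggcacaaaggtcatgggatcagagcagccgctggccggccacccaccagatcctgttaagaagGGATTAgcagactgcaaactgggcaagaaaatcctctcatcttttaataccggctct
Tyr, the rate-limiting enzyme of melanin synthesis, rose by 2.18 on the log2 scale, Sag, rod arrestin, by 1.33 and Guca1a, an activator of guanylate cyclase, by 1.63.

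Ptgds, the lipocalin-type prostaglandin D synthase, had the largest rise of all genes. Its signals were 10.06, 9.08, 9.57, 9.82, 9.42 and 9.63 in week 3, against 6.44, 6.03, 7.42, 7.45 and 6.36 in week 2, a fold change of 7.24 (adjusted p = 1.7e-07). Slc4a4 and Slc4a5, sodium bicarbonate cotransporters, rose 5.49-fold and 4.77-fold, and Car14, a membrane carbonic anhydrase, rose 4.72-fold (adjusted p = 2.5e-06, 8e-07 and 9.7e-08). Slc7a8, an amino acid transporter, and Cltrn, an amino acid transport regulator, rose 5.36-fold and 5.79-fold. Penk, the precursor of enkephalins, rose 5.68-fold, with week 3 between 7.99 and 9.98 and week 2 between 5.50 and 7.21.

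Of the 20 largest rises with no overlap between arrays, 13 had their highest mean in week 1, 5 in week 3 and 2 in week 6. The 5 of week 3 were Angptl7, Timp3, Per1, Fkbp5 and Zbtb16. Angptl7, a secreted angiopoietin-like protein, lay between 9.57 and 11.20 in week 3 and between 7.17 and 8.90 in week 2, a fold change of 6.27 (adjusted p = 1.3e-07). Its means were 8.39, 7.90, 10.55, 8.52 and 7.15 at 1, 2, 3, 6 and 8 weeks. Timp3, a matrix-bound inhibitor of metalloproteinases, rose 5.80-fold (adjusted p = 3.5e-07), with signals of 11.40 to 12.21 in week 3 and 8.19 to 9.98 in week 2.

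**Figure D4:**
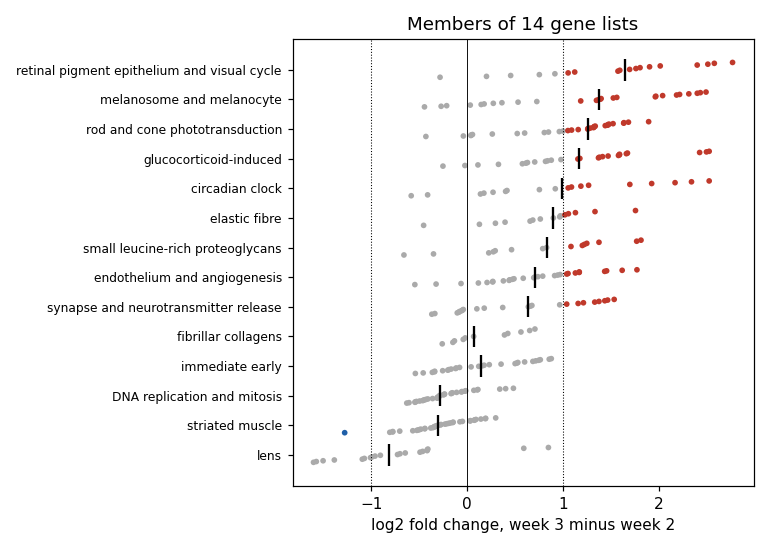
Log2 fold change, week 3 minus week 2, of each measured member of 14 gene lists (points: red called higher, blue called lower, grey not called) with the median of each list as a black line. Dotted lines mark a fold change of 2. The median is 1.64 for pigment epithelium, 0.98 for the clock, 0.07 for fibrillar collagens and -0.82 for lens.

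Matrix genes were described by the kind of molecule they code for. None of 11 fibrillar collagens was called, with a median log2 fold change of 0.07. Col1a2 lay between 11.51 and 12.68 in week 3 and between 10.86 and 12.15 in week 2 (log2 fold change 0.70, adjusted p = 0.012), and Col3a1 and Col5a2 had log2 fold changes of 0.65 and 0.42 (adjusted p = 0.036 and 0.10). Of the 15 small leucine-rich proteoglycans, which bind collagen fibrils and limit their thickness, 7 rose, with a median of 0.83. With the array spread as a covariate 2 were called and the median was 0.36. The largest log2 fold change of the list was 1.81. Bgn, biglycan, averaged 10.65 in week 3 and 9.43 in week 2, with overlapping arrays. Optc, which codes for opticin, a protein of the vitreous, rose 3.40-fold, while Ogn, Omd, Aspn, Epyc and Kera were not called.

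Of 15 elastic fibre genes 5 rose, with a median of 0.90, but only 2 without week 2 replicate 1 and 3 without week 3 replicate 3. Under quantile normalization 2 were called, and with the array spread as a covariate 1. Fbln1, fibulin 1, rose 3.37-fold (adjusted p = 8e-09) with week 3 signals of 9.33 to 10.61 and week 2 signals of 7.85 to 8.53. Mfap2, a microfibril glycoprotein, rose 2.52-fold (adjusted p = 8.9e-06). Eln, elastin, was just past the threshold, at a fold change of 2.02 (adjusted p = 0.0013), and below a fold of 2 without any 1 of week 3 replicates 3 and 5 and week 2 replicates 1 and 2. Fbn2, fibrillin 2, had a log2 fold change of 0.68.

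Collagen processing genes rose in 10% and matrix proteases and inhibitors in 17.4%, against 2.89% of all genes. Their mean signals in week 3 were 7.78 and 7.45, and bright genes were called more often. Of all genes, 339 of 4985 rose in the brightest bin and 181 of 4984 in the next. Of 20 collagen processing genes 2 rose, Loxl1, a lysyl oxidase-like enzyme, by 2.81-fold (adjusted p = 3.2e-05) and Plod1, a lysyl hydroxylase, by 2.06-fold. Lox and the collagen chaperone Serpinh1 had log2 fold changes of 0.35 and 0.34 and were not called. Without week 3 replicate 3, week 2 replicate 1 or week 2 replicate 2, Plod1 was below a fold of 2 and 1 of the 20 genes rose. Of 23 proteases and inhibitors 4 rose, and 3 of these were inhibitors, namely Timp3, Timp2 (2.37-fold, adjusted p = 0.00022) and Reck (2.62-fold, adjusted p = 9.1e-05). The fourth was Mmp2, gelatinase A, at 2.07-fold (adjusted p = 0.0019), which was below 2 without any 1 of week 3 replicates 3 and 5 and week 2 replicates 1 and 2. With the array spread as a covariate 0 collagen processing genes and 1 gene of the proteases and inhibitors were called.

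Of 22 TGF-beta and CCN genes, which regulate matrix production by fibroblasts, 2 rose. Ccn2, also known as Ctgf, a matricellular mediator of TGF-beta, lay between 10.11 and 11.62 in week 3 and between 7.75 and 9.75 in week 2, a fold change of 4.11 (adjusted p = 5.4e-06). Tgfb2 rose 2.10-fold (adjusted p = 1.5e-05, log2 fold change 0.99 without week 3 replicate 1). Tgfb1 missed the fold threshold at 1.99 although its arrays did not overlap, with 8.53 to 9.13 in week 3 and 7.57 to 8.02 in week 2 (adjusted p = 3.4e-08). Tgfb3 had a log2 fold change of 0.79, and Ccn1 and Tgfbi had -0.09 and -0.38. The count was 4 without week 3 replicate 2, 5 without week 2 replicate 3, 4 without both week 2 replicates 5 and 6, and 0 with the array spread as a covariate.

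Insulin-like growth factors act with binding proteins that hold them in the tissue. Of 25 IGF and FGF genes 6 rose, namely Igfbp2, Igfbp4, Igfbp5, Igfbp6, Igfbp7 and Fgfr1, with a list median of 0.52. Igfbp4 lay between 10.24 and 11.72 in week 3 and between 8.42 and 9.97 in week 2, a fold change of 3.09 (adjusted p = 3.7e-05). Igfbp3, a further binding protein, and the ligands Igf1 and Igf2 had log2 fold changes of 0.96, 0.93 and 0.33 (adjusted p = 0.0033, 0.0029 and 0.28) and were not called. With the spread of the arrays as a covariate 0 of the 25 were called.

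Of 35 BMP and Wnt genes 6 rose, with a median of 0.60, and 2 were called with the array spread as a covariate. Bmp2 rose 2.74-fold (adjusted p = 1.6e-05), Wnt2b, a ligand expressed at the ciliary margin of the eye, 2.39-fold (adjusted p = 5.4e-07), and Dkk3, a secreted Dickkopf protein, 2.45-fold (adjusted p = 1.5e-06). Of 20 genes of retinoic acid and thyroid hormone 3 rose, and all 3 handle retinoids, while 0 were called with the array spread as a covariate. These were Stra6, the receptor for retinol binding protein (3.38-fold, adjusted p = 1.9e-06), Rdh10, a retinol dehydrogenase (3.06-fold, adjusted p = 6.3e-05), and Aldh1a2, a retinaldehyde dehydrogenase (2.26-fold, adjusted p = 0.0012). The last had overlapping arrays and a log2 fold change of 0.93 without week 2 replicate 2.

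Some vessel and immune cell markers rose as well. Of 29 endothelial genes 9 rose, with a median of 0.70, and 4 were called with the array spread as a covariate. Eng, a co-receptor of endothelial cells, rose 3.06-fold (adjusted p = 0.00017) and Pgf, placental growth factor, 3.41-fold (adjusted p = 4.8e-06). The defining markers Cdh5 and Pecam1 had log2 fold changes of 0.12 and 0.26 (adjusted p = 0.78 and 0.46). Kdr was at 0.97 (adjusted p = 0.016). Smooth muscle and pericyte genes rose in 3 of 18, and Acta2, smooth muscle actin, was 2.32-fold higher (adjusted p = 0.0082) but at a log2 fold change of 0.95 without week 2 replicate 2. The smooth muscle count was 5 without week 2 replicate 3, 5 without week 2 replicate 6, 6 without both week 2 replicates 5 and 6, and 0 with the array spread as a covariate.

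Among 34 macrophage and leukocyte genes 5 rose, with Lyz2, lysozyme, at 3.24-fold (adjusted p = 1.1e-05) and C1qc, a chain of complement C1q, at 2.60-fold (adjusted p = 7.5e-09). Ptprc, the pan-leukocyte marker CD45, was near 5 at both ages, with 5.06 ± 0.09 in week 3 and 5.09 ± 0.20 in week 2. Of 24 complement and interferon genes 6 rose, among them Serping1, the C1 inhibitor (3.24-fold, adjusted p = 2.1e-05), and B2m, the light chain of class I antigen presentation (2.81-fold, adjusted p = 6e-07). With the array spread as a covariate 3 macrophage and leukocyte genes and 2 complement and interferon genes were called.

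Markers of other tissues in or around the eye varied from mouse to mouse. The mean signal of 36 corneal and conjunctival genes was 8.36 in week 3 replicate 3, against 9.65 to 10.24 in the other week 3 arrays and 9.25 to 10.09 in week 2. The same array had the highest striated muscle mean of week 3, at 7.48, where the list ranged over 5.71 to 7.48 in week 3 and 6.21 to 7.29 in week 2. The mean of 20 lens genes lay between 5.70 and 5.92 in week 3 and between 6.02 and 8.17 in week 2, with week 2 replicate 5 highest. Their part in the results above was not tested.

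Few of these genes were called. No lens gene was called, although the median log2 fold change was -0.82 and 18 of 20 were negative. In 8 of the 20 every week 3 array lay below every week 2 array, as in 8.93% of all genes, and in 1 the order was the opposite. Cryaa, a major crystallin, lay between 6.48 and 6.66 in week 3 and between 6.68 and 11.27 in week 2 (log2 fold change -1.39, adjusted p = 0.14). Of the surface epithelium genes 3 rose, or 0 with the array spread as a covariate, and all were keratins. Krt16 and Krt17, keratins of stressed or migrating epithelium, rose 2.73-fold and 2.71-fold, and Krt4, of conjunctiva and other mucosae, 2.14-fold (adjusted p = 0.0027, 0.00042 and 0.0053), all with overlapping arrays. Krt4 was below a fold of 2 without week 2 replicate 1 or week 2 replicate 2, at log2 fold changes of 0.98 and 1.00. Krt5, Krt14 and Krt12 had log2 fold changes of -0.04, 0.43 and -0.92 and were not called.

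Of 39 striated muscle genes 1 fell, with a list median of -0.30. It was Smpx, a small protein of muscle, at a fold change of -2.43 (adjusted p = 0.048), and leaving out any 1 of 9 arrays ended the call, with log2 fold changes of -0.96 to -1.34. Acta1 had a log2 fold change of 0.30 and Ttn one of -0.70. None of 37 replication and mitosis genes was called, with a median of -0.29, though 2 fell with the array spread as a covariate. Mki67 had means of 7.38 ± 0.51 in week 3 and 8.01 ± 0.32 in week 2 (adjusted p = 0.043). Of 20 adipocyte genes Scd1, a fatty acid desaturase, rose 2.14-fold (0.95 and 0.98 on the log2 scale without week 2 replicate 1 or 2) and Cd36, a fatty acid transporter, fell, with a fold change of -2.46 (adjusted p = 0.011). The arrays of Cd36 overlapped, at 3.11 to 4.99 in week 3 and 4.46 to 6.44 in week 2. No adipocyte gene was called lower with the array spread as a covariate.

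**Figure D5:**
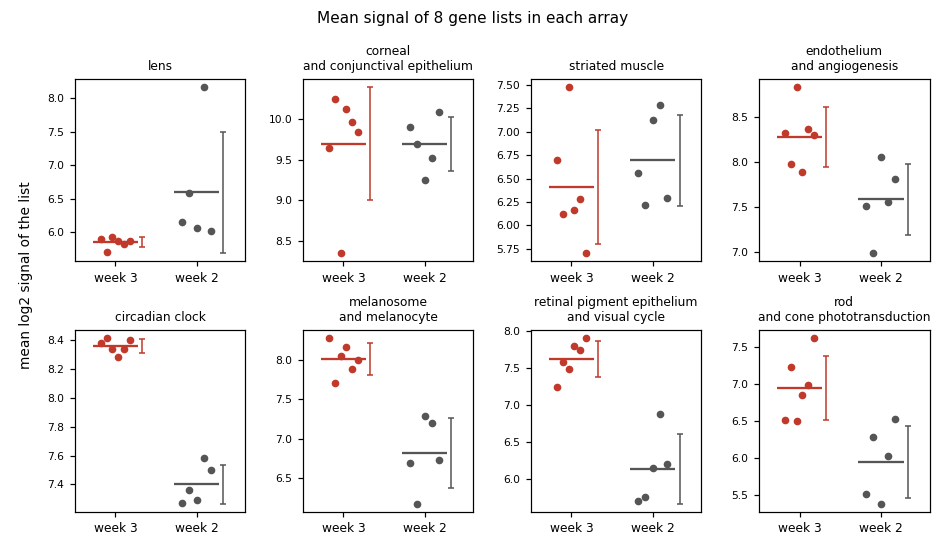
Mean log2 signal over the members of 8 gene lists in each array, week 3 on the left and the 5 independent arrays of week 2 on the right, with means as lines and SDs as bars. The clock, melanosome and pigment epithelium lists are higher in every week 3 array than in any week 2 array, and 1 array stands apart for lens in week 2 and for corneal epithelium in week 3.

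The remaining lists can be read beside the 2.89% of all genes that rose. The shares of the sterol list, 4.55%, and of the PGC-1 list, 3.33%, were near it. Of 23 synapse genes 8 rose, or 0 with the array spread as a covariate, with a median of 0.64, Slc17a7, the vesicular glutamate transporter of photoreceptor terminals, foremost at 2.89-fold. Of 26 Mueller glia and inner retina genes 4 rose (7 without week 3 replicate 1), while Grm6 of ON bipolar cells and Calb2 of amacrine cells had log2 fold changes of 0.15 and 0.82 and were not called. Rises numbered 4 of 24 in tenocyte and cartilage-type matrix, 2 of 18 in other collagens, 2 of 17 in large proteoglycans and hyaluronan, 2 of 19 in Schwann cell and myelin, 2 of 31 in the cornified envelope, 2 of 24 in heat shock and unfolded protein response, 1 of 22 in sterol and fatty acid synthesis and 1 of 30 in the PGC-1 axis and respiratory chain. No gene of the 9 erythroid and 11 histone genes measured was called, although 1 erythroid gene was called higher without any 1 of week 3 replicates 1 and 3 and week 2 replicates 5 and 6, and 1 was called lower with the array spread as a covariate. In other collagens the count was 1 without any 1 of week 3 replicates 3, 5 and 6 and week 2 replicates 1, 2 and 6, and in Schwann cell and myelin it was 1 without week 3 replicate 3 or week 2 replicate 2. With the array spread as a covariate 1 gene was called higher in each of the tenocyte and large proteoglycan lists and 0 in other collagens, Schwann cell, Mueller glia, cornified envelope, heat shock, sterol and PGC-1 lists. The 1 gene of the sterol list was Scd1, and the count was 0 without week 2 replicate 1 or replicate 2.

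Some genes that the study followed by name, among them Ccn2, Tgfb2, Mitf, Krt17 and Pgf, are described above. Ppargc1a, a coactivator that drives mitochondrial genes, rose 2.55-fold, with week 3 between 6.05 and 6.82 and week 2 between 4.73 and 5.72 (adjusted p = 1.2e-06). Fyn, a Src family kinase, had no overlap but missed the fold threshold at 1.87 (adjusted p = 0.00054). Egfr, Col6a3, Actb and Hprt had log2 fold changes of -0.21, 0.36, 0.19 and 0.41. Dsg1a, Gapdh and Ucp2 had no transcript cluster with their symbol alone.

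Of the 42 genes that fell 26 were protein coding, as were 571 of the 576 that rose. Small nucleolar RNAs guide the processing of other RNAs. Of 54 snoRNAs measured 4 fell, or 7.41%, against 0.211% of all genes, and 1 rose. Snord22 lay between 5.49 and 6.21 in week 3 and between 6.82 and 8.54 in week 2, a fold change of -3.32 (adjusted p = 1.7e-06). Rnu3a, a U3 RNA of ribosome assembly, had a fold change of -2.89 (adjusted p = 4.1e-07), with 5.23 to 5.62 in week 3 and 6.43 to 7.55 in week 2. Snora16a and Snord15a were below a fold of 2 without week 2 replicate 5, at log2 fold changes of -0.94 and -0.88.

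Vaultrc5, a vault RNA, had the largest fall, with a fold change of -4.48 (adjusted p = 1.5e-05) and signals of 5.30 to 6.16 in week 3 and 7.31 to 9.50 in week 2. Snord22, Rnu3a, Snora16a, Snord15a and Vaultrc5 were also called lower with the spread of the arrays as a covariate. The probes of the array were made for whole transcripts, and how completely such short RNAs were recovered was not tested.

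Of 297 microRNA genes 3 fell, or 1.01%, and 2 rose, or 0.673%, against 0.211% and 2.89% of all genes. Mir680-1 lay between 6.70 and 7.08 in week 3 and between 7.52 and 8.68 in week 2, a fold change of -2.46 (adjusted p = 2.2e-06). Mir680-2 lay between 7.74 and 8.10 in week 3 and between 8.33 and 9.79 in week 2, a fold change of -2.41 (adjusted p = 1.4e-05). Both genes encode the same mature sequence in RefSeq (GRCm38.p6, plus strand), which is shown because the mature RNA does not distinguish them. The mature sequence lies at chr6:129691541-129691561 for Mir680-1 and at chrX:144297790-144297810 for Mir680-2. Capitals mark the seed, bases 2 to 8.
mmu-miR-680: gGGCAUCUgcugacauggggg

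Among the protein coding falls, Acsm1, a mitochondrial enzyme of fatty acid activation, split the week 3 arrays, with signals of 7.41 and 7.66 in replicates 1 and 2 and of 5.62 to 5.68 in the other 4, against 8.19 to 8.88 in week 2. Its fold change was -4.46 (adjusted p = 0.00054). Trdn, triadin of the muscle junction, had a fold change of -2.76 (adjusted p = 0.0024), but the log2 fold changes of its 19 transcript clusters ranged between -1.70 and -0.05. Akr1c18, a steroid dehydrogenase, had a fold change of -2.13 and lost its call without week 3 replicate 3 or 6 (log2 fold changes of -0.91 and -0.99). Srsy, on the Y chromosome, had a fold change of -4.16, with 3.06 to 3.31 in week 3 and up to 7.32 in week 2. It was not called once week 2 replicates 5 and 6 were left out, with replicate 4 kept.

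Tmprss11d and Tmprss11b, serine proteases of airway and surface epithelium and named here after their values were seen, had fold changes of -2.83 and -2.28. Their arrays overlapped, and Tmprss11b was at a log2 fold change of -0.83 without week 3 replicate 3, the array with the low corneal signal. Of the other largest falls, Dppa2, Zfp600, Olfr714, Gm8479, Gm7982, 4930444G20Rik, A530040E14Rik, G530011O06Rik and Vmn2r-ps104 had fold changes of -2.62 to -2.08. Dppa2, Olfr714 and Gm8479 were below a fold of 2 without week 2 replicate 1, Zfp600 without week 2 replicate 3, and G530011O06Rik without any 1 of week 3 replicates 4 and 6 and week 2 replicate 3. Of 1027 olfactory receptor genes 1 was called, Olfr714, and their median log2 fold change was -0.39.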

How the data were processed

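RNA of whole sclera was hybridised to Affymetrix Mouse Gene 1.0 ST arrays. The deposited values are log2 signals per transcript cluster, normalized by the authors. The submitters' processing notes name Partek 6.5 and GCRMA, whereas the study's methods describe RMA with removal of scan date effects, and which of these made the values is not known. Such adjustment can move levels between ages. The number of arrays limits the precision, and because no repeat arrays of a mouse are given, the spread covers animal and technical variation together.

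limma 3.58.1 in R 4.3.3 was fitted to all 35556 transcript clusters and 30 arrays with age as the factor, without a block, and p-values were adjusted by Benjamini-Hochberg over all transcript clusters. The thresholds were a 2-fold change and an adjusted p of 0.05. A gene with several transcript clusters was represented by the one with the highest mean signal. Symbols were matched to RefSeq names. Genes were named as the 20 largest rises and 20 largest falls without overlap between arrays, as called and best known members of each list, or as genes that the study followed. The members and the 35 gene lists were chosen with earlier results of these data known. The glucocorticoid-induced list and the CACGTG motif were added after leading values had been seen. Alternatives covered the arrays fitted, normalization, thresholds, signal filter, array spread, dependent arrays and each array left out. The scripts were tested on simulated data. Transcript clusters with several symbols (1621) or none (12146) were not described by gene.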

Additional observations from a re-analysis of the deposited data

Results flagged for a closer look

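Of 546 sets of array values tested for 1 array far from the others, 28 were marked, and chance marks about 1 in 20. The gap of that array to its nearest neighbour, relative to the whole range of the age, exceeded Dixon's limit. All values are log2 signals.

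In week 3 replicate 3 the surface epithelium genes were low, with Aldh3a1 at 9.60, Krt12 at 8.36, Krt5 at 11.53 and the corneal and conjunctival list mean at 8.36, while the mean of the PGC-1 axis and respiratory chain was high at 8.03. Week 3 replicate 2 was low for Col12a1 at 8.33, Col1a1 at 12.22, Ppargc1a at 6.05 and the retinoic acid and thyroid hormone list mean at 7.41, and high for Snord22 at 6.21. Week 3 replicate 1 was high for Dkk3 at 10.39 and Myh11 at 11.20 and low for Rgr at 8.37. Week 3 replicate 6 was low for Nr3c1 at 7.66 and high for the Schwann cell and myelin list mean at 7.38.

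In week 2 replicate 3, Aldh3a1 at 12.38, Tgfbi at 9.65, Tmprss11d at 7.58, Top2a at 6.86 and the DNA replication and mitosis list mean at 6.60 were low, and Chad at 7.74 and Ciart at 6.10 were high. Week 2 replicate 2 was low for Acta2 at 9.50, Rbpms at 7.40 and the macrophage and leukocyte list mean at 5.92. Week 2 replicate 5 was high for Snord15a at 8.36 and the lens list mean at 8.17, and week 2 replicate 6 was high for Fos at 7.79.

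Among the 12146 transcript clusters with no gene symbol, which no comparison above uses, 313 were higher in week 3 than in week 2 and 325 were lower.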

How the results depend on the processing

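The 618 calls (576 higher and 42 lower in week 3) varied most with the thresholds and with the spread of the arrays. With the spread as a covariate 173 genes were called (139 higher), 10985 without a fold threshold (5768 higher, 5217 lower), 2661 at a fold of 1.5 (2215 higher, 446 lower) and 347 when tested against a fold of 1.5 (340 higher, 7 lower). Over all gene lists the calls numbered 28 with the covariate, 425 without a fold threshold, 278 at a fold of 1.5 and 61 when tested against that fold. With the covariate the calls higher in week 3 were 2 for small leucine-rich proteoglycans, 0 for phototransduction, 1 for pigment epithelium, 0 for melanosome and 4 for endothelium. Tested against a fold of 1.5 they were 1 for small leucine-rich proteoglycans, 0 for phototransduction and 1 for endothelium, which had 19 without a fold threshold and 15 at a fold of 1.5. The covariate turned the log2 fold changes of Gm7982 to 0.14 and of Vmn2r-ps104 to 0.0075. Covariate and age are nearly confounded, and the cause of these changes was not tested. Leaving out 1 array at a time gave 502 to 683 genes higher and 33 to 59 lower. Week 2 replicate 4 stayed in when another week 2 array was left out, so that array was removed only in part. Quantile normalization called 401 higher and 57 lower, with 409 genes shared, and called 124 of the 151 named genes that were called. Of 6 correlations of same-numbered arrays, 2 were over 0.1. Only 1 of 6 week 3 arrays, replicate 3, correlated best with its own number (r = 0.39). Week 2 replicate 4, the mean of the others, could show no pairing. These values do not settle whether replicate numbers pair the arrays. With the replicate number as a block 620 genes were called (577 higher, 43 lower), and no named call changed.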
